A study of Homo sapiens with 6 samples.

Results

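Ribosome biogenesis and nucleolar genes were described in NCI-H1299, a human lung carcinoma line, after stable knockdown of Ephexin1. The 58 genes were taken by symbol from a list of RNA polymerase I factors, snoRNP proteins, other nucleolar proteins and assembly factors of both ribosomal subunits. All 58 were found among the 26255 rows of the expression table. Total RNA was sequenced from 3 shControl and 3 shEphexin1 libraries. Cells of both groups were selected to keep an shRNA plasmid with a U6 promoter, which expressed either a control shRNA or an shRNA against Ephexin1. The names of the 3 shEphexin1 libraries share a stem, so they may come from 1 stable clone. The labels do not say whether libraries of a group came from separate cultures, and the methods say only in general that experiments were repeated. The p-values therefore measure only the spread between these libraries, which may be technical. A difference between clones cannot be told apart from an effect of the knockdown here. Values were FPKM, a level per transcript length and per sequenced fragment. The authors' methods state that the libraries were also scaled to each other by a geometric method. No read counts were used here, so the depth of the libraries is unknown, and between 16958 and 17509 genes were above 0 in each.

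NGEF, which encodes Ephexin1, was at 13.3, 11.7 and 16.4 FPKM in shControl libraries against 9.81, 8.25 and 10.5 FPKM in shEphexin1 libraries. The groups did not overlap. The log2 fold change was -0.53 ± 0.163 (SE, n = 3 per group), with an adjusted p of 0.103 by limma over all genes tested. It was 0.0338 from replicates 1 and 3 alone, and 0.00572 with a term for replicate 2. Replicate 2 of both groups stood apart from the other libraries along the GC content of the transcripts, so a term for these 2 libraries and a fit without them were tried beside the fit to all 6. The carcinoma markers did not overlap between the groups. The keratin KRT8 was at 6.79, 5.13 and 8.44 FPKM in shControl libraries and at 3.26, 2.65 and 3.48 FPKM after knockdown, with a log2 fold change of -1.07 (adjusted p = 0.0304 by limma, 0.000870 with the term, 0.00705 from replicates 1 and 3). Its partner KRT18 was at 89.6, 67.6 and 109 FPKM against 47.6, 36.3 and 54.7 FPKM, with a log2 fold change of -0.94 (adjusted p = 0.0439 by limma, 0.000440 with the term, 0.00615 from replicates 1 and 3). Both keratin differences were larger than that of any of the 58 genes, and their part in the values below was not tested. VIM lay at 1979 to 2670 FPKM. PTPRC and CD3E were listed at 0 in every library, PECAM1 reached 0.0992 FPKM at most, COL1A1 0.386 and DCN 0.693. In bulk RNA, fewer cells of a kind and less RNA per cell cannot be told apart.

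Ribosomes are assembled mainly in the nucleolus. RNA polymerase I transcribes the long ribosomal RNA precursor there, and small nucleolar ribonucleoproteins (snoRNPs) guide its 2′-O-methylation and pseudouridylation. Large sets of helicases, nucleases, methyltransferases and scaffold proteins then cut the precursor and build the small and the large subunit on it. Many genes of this programme are known targets of MYC, a factor that binds the E-box CACGTG, and the programme is known to follow growth signalling through ERK and mTOR. The FPKM here describe the mRNAs that encode these factors, not ribosomal RNA or ribosomes.

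The mean levels of the 58 genes over the 6 libraries ran from 6.26 to 1178 FPKM, with a median of 24.6 FPKM, so all of them passed the filter on low values. NPM1, the nucleolar chaperone nucleophosmin, was the most abundant, followed by NOP10, FBL, NHP2 and NCL. RCL1, a processing factor of the small subunit, was the least abundant. NPM1 stood at 154 to 236 times the level of RCL1 in a library. The proteins of the H/ACA snoRNP, which guides pseudouridylation, work in 1 complex but their mRNAs were far apart: per length, NHP2 was 8.33 to 12.3 times and NOP10 17.3 to 19.9 times as high as GAR1. DKC1, the pseudouridine synthase of that complex, was 2.32 to 2.79 times as high as GAR1 in every library. In the box C/D snoRNP, FBL stood at 1.48 to 2.13 times NOP56 but at 1.63 to 4.40 times NOP58, a wider range between libraries. The summed FPKM of the 58 genes were 3594, 3368 and 3639 in shControl libraries and 2941, 2848 and 2944 in shEphexin1. NPM1 was a large part of these sums, and without it they were 2266, 1993 and 2338 against 1952, 1726 and 1987 FPKM. The sums over all genes differed too, at 627462, 561335 and 651441 FPKM in shControl and 558737, 516079 and 587222 in shEphexin1. As a share of all FPKM in the library, the 58 genes took 0.573%, 0.600% and 0.559% in shControl and 0.526%, 0.552% and 0.501% in shEphexin1.

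Promoter sequence was looked up because MYC-family E-boxes are a known feature of this programme. Entries of 300 bases, from 250 before to 50 after a transcription start, were present in RefSeq (GRCh38.p14) for 49 of the 58 genes. The palindrome CACGTG, which reads the same on both strands, stood in 23 of their 60 promoter windows (38.3%), against 2548 of all 35116 windows (7.26%). Counted by gene, 22 of 49 (44.9%) had it in at least 1 window, against 1205 of 9343 genes (12.9%) with an entry and a mean of at least 1 FPKM in these cells. The match is a description of letters and not of binding. The 250 bases before the start are shown for 4 genes, on the strand of the gene, with CACGTG in capitals. NOP10, NAT10 and UTP20 hold CACGTG in this stretch, and each has 1 promoter entry. They were picked after their values were seen, so they show neither how common the match is nor how genes with it changed. DDX47 (chr12:12813096-12813345, plus strand), described below for its change in level, has no match in this stretch. NOP10 (chr15:34343137-34343386, minus strand) has 2 matches, which begin 170 and 11 bases before the start. NAT10, an RNA acetyltransferase (chr11:34105379-34105628, plus strand), and UTP20, a small subunit factor (chr12:101279855-101280104, plus strand), show a single match close to the start, at 15 and 10 bases before it.
DDX47: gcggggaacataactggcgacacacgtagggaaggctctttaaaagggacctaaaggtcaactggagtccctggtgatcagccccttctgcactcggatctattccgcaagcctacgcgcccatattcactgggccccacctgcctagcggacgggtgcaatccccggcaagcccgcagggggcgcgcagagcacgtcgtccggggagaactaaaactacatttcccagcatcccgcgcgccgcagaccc
NOP10: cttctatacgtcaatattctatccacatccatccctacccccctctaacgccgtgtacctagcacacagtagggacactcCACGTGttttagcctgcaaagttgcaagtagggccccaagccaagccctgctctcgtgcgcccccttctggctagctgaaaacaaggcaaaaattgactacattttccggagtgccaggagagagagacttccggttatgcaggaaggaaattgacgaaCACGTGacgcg
NAT10: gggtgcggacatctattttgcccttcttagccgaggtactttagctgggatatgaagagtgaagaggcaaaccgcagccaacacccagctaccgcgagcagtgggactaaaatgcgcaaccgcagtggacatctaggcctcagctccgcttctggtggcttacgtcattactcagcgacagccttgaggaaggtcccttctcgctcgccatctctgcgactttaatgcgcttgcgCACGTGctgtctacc
UTP20: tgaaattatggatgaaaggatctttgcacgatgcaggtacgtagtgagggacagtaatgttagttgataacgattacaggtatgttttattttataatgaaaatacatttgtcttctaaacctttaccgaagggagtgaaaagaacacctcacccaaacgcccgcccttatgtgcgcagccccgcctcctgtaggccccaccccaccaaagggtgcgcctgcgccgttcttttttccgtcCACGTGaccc

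The comparison of shEphexin1 with shControl describes how mRNA levels differed between the knockdown and the control cells. One of the 58 genes, DDX47, fell at an adjusted p of at most 0.025 by limma (1.72%), and none rose. Of all 16020 genes tested, 2.15% were called lower and 1.25% higher at this threshold, so the share among the ribosome biogenesis genes was close to the background. None passed with a fold of at least 2, which 1.89% of all genes did. The estimated changes were small and mostly below 0. The log2 fold change was below 0 for 48 of 58 genes (82.8%), against 51.1% of all genes, and its median was -0.10, against -0.01 over all genes tested. Without adjustment, 10 genes had a p of at most 0.05 in the lower direction (background 12.8%) and none in the higher direction (background 10.5%).

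**Figure D1:**
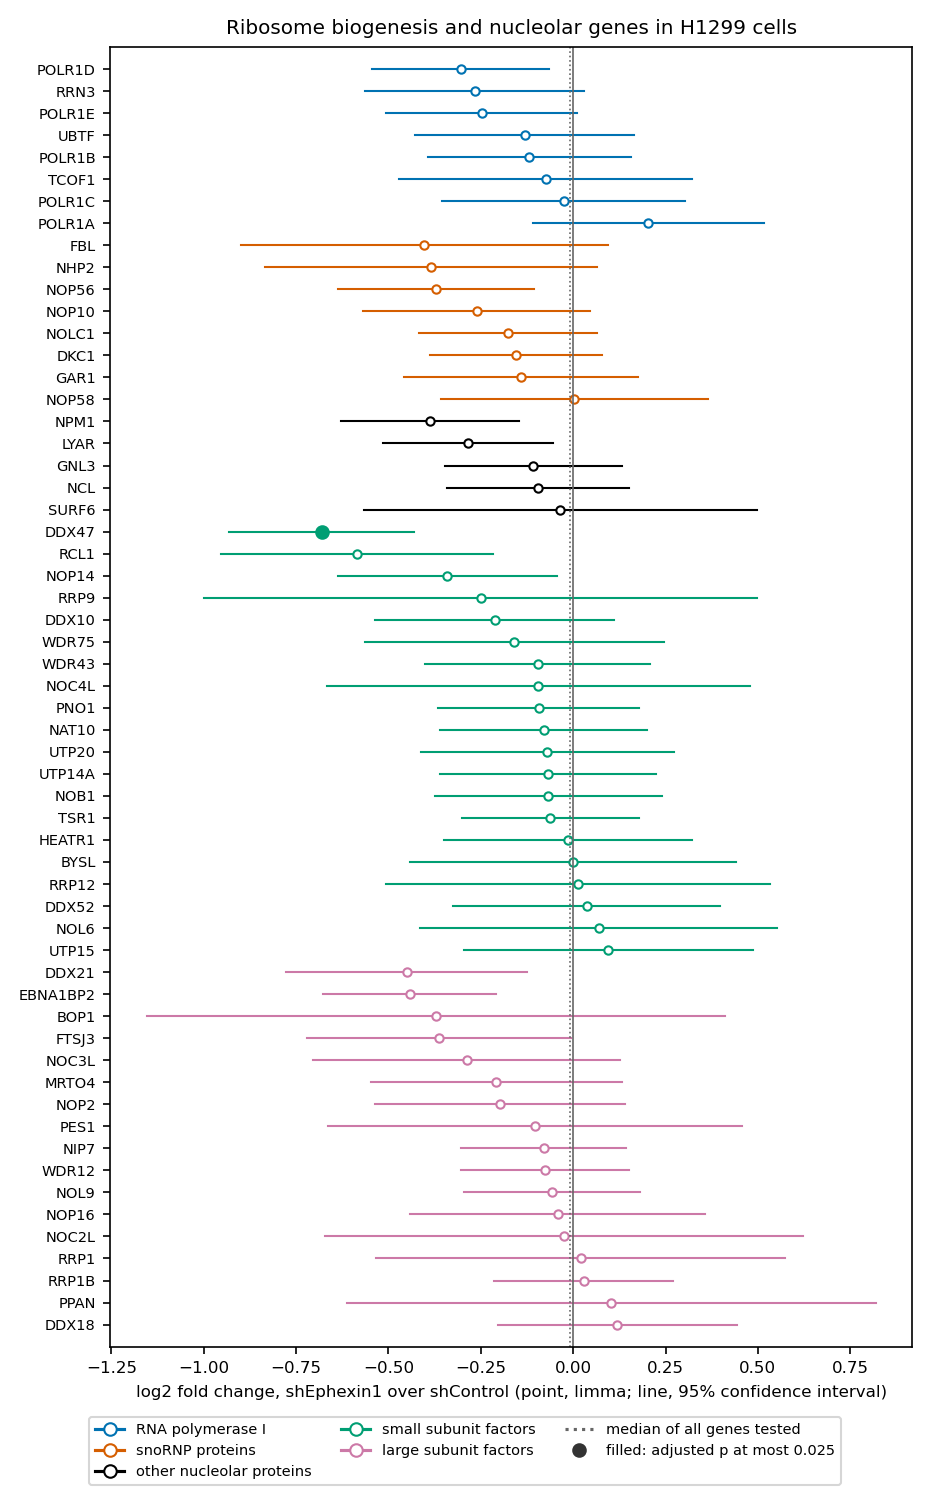
Log2 fold change of shEphexin1 over shControl (x axis, log2 scale) for each of the 58 genes (y axis), coloured by role, with the limma estimate as a point and its 95% confidence interval as a line; n = 3 libraries per group. The filled point is DDX47, the one gene past an adjusted p of 0.025, and 48 of the 58 points lie below 0.

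All 3 shEphexin1 libraries lay below all 3 shControl libraries for 17 genes (29.3%, background 15.4%), and none lay above in all (background 12.8%). Among all genes with a mean of at least 1 FPKM, these shares were 16.9% below and 11.6% above. The groups overlapped for the other 41. Between libraries of the same replicate number, 37 genes were lower in shEphexin1 each time (63.8%, background 33%) and 4 were higher each time (6.90%, background 29.2%). The median difference over the 58 genes was -0.10, -0.12 and -0.15 log2 units for replicates 1, 2 and 3, against 0.00, -0.02 and -0.03 over all genes. The differences were below 0 for 46, 47 and 47 genes, so the small downward difference was seen at each replicate number.

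With a term for replicate 2 in the fit, which removes what both libraries numbered 2 share, 14 genes were lower at an adjusted p of at most 0.025 (24.1%, background 13.1%) and none was higher (background 8.59%). Among all genes with a mean of at least 1 FPKM, 15.5% were lower and 9.65% higher with the term. None of the 14 genes reached a fold of 2 (background 3.52%). The 14 genes were BOP1, DDX21, DDX47, EBNA1BP2, FBL, FTSJ3, LYAR, NHP2, NOP10, NOP14, NOP56, NPM1, POLR1D and RCL1. From replicates 1 and 3 alone, 6 passed (10.3%, background 6.67%), namely DDX21, DDX47, EBNA1BP2, NHP2, NOP56 and NPM1, and none was higher (background 3.95%) or at a fold of 2 (background 2.68%). With a correction for the GC content and length of the transcripts, 14 of 58 were lower (24.1%, background 14.2%), none was higher (background 8.57%) and none was at a fold of 2 (background 3.45%). NOC3L, NOP2, TCOF1 and UBTF passed here but not with the term, and LYAR, NHP2, NOP10 and POLR1D passed with the term but not here. The shares depended on how libraries were brought to a common scale. After quantile normalization, which gives every library the same distribution of values, no gene of the 58 passed, 40 were below 0, and the median was -0.04. Quantile normalization together with the term for replicate 2 left 7 genes lower (12.1%, background 10.3%), a share close to the background, with none higher (background 9.55%) or at a fold of 2 (background 3.2%). These 7 were DDX21, DDX47, EBNA1BP2, FTSJ3, NHP2, NOP56 and RCL1.

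The difference was larger among the more abundant genes, and the estimates of abundant genes of all kinds were mostly below 0 too. At a mean level of 50 FPKM or more, the median change was -0.39 log2 units over 9 ribosome biogenesis genes and -0.18 over all 1424 genes, of which 73.9% were below 0. There, 8 of the 9 were below 0. Between 20 and 50 FPKM the medians were -0.13 (27 genes, 26 or 96.3% below 0) and -0.07 (2388 genes, 61.1% below 0). From 1 to 20 FPKM they were -0.06 (22 genes, 14 or 63.6% below 0) and 0.00 (8826 genes, 49.9% below 0). Across the 58 genes, log2 fold change and log2 mean level had a Pearson r of -0.43 and a Spearman rho of -0.49, given as a description, since the genes share the same 6 libraries. The share with all shEphexin1 libraries below all shControl libraries also rose with level. At 50 FPKM or more it was 44.4%, against 31.5% of all genes. Between 20 and 50 FPKM it was 33.3% against 18.2%, and from 1 to 20 FPKM 18.2% against 14.2%. The part of this level trend in the change of single genes, and in the shares above, was not tested.

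Among the 8 RNA polymerase I factors, 7 had a log2 fold change below 0, with a median of -0.12, and none passed the test as reported. POLR1D, a subunit that RNA polymerases I and III share, was at 27.4, 26.8 and 27.4 FPKM in shControl libraries against 22.8, 22.96 and 20.3 FPKM in shEphexin1 libraries. Its groups did not overlap, and its log2 fold change was -0.30 ± 0.102 (SE). The adjusted p was 0.128 by limma, 0.0151 with the term for replicate 2 and 0.0481 from replicates 1 and 3. RRN3, the factor that brings RNA polymerase I to its promoter, was at 13.8, 12.8 and 13.1 FPKM and at 10.2, 12.6 and 10.4 FPKM. The second shEphexin1 library lay just below the control libraries, and the adjusted p was 0.260 by limma (log2 fold change -0.27). UBTF, which binds the ribosomal DNA promoter, showed 29.1, 24.5 and 29.4 FPKM against 26.3, 22.4 and 27.0 FPKM. Its groups overlapped, its log2 fold change being -0.13, at an adjusted p of 0.596 by limma. With the GC and length correction UBTF was lower, at -0.23 with an adjusted p of 0.0109 by limma. TCOF1, the Treacher Collins nucleolar scaffold protein, was at 29.1, 25.04 and 32.2 FPKM and at 28.2, 21.98 and 32.5 FPKM. These values overlapped almost wholly, and its log2 fold change was -0.07. With the GC and length correction it was -0.25, with an adjusted p of 0.00994 by limma.

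The estimates of the catalytic subunits differed in sign. POLR1A, the largest subunit, was at 13.6, 12.03 and 13.5 FPKM in shControl libraries against 16.0, 12.9 and 16.4 FPKM in shEphexin1 libraries. This was the highest log2 fold change of the 58 genes as reported, 0.20, with a 95% confidence interval of -0.11 to 0.52 and an adjusted p of 0.420 by limma. With the GC and length correction it was 0.08, below DDX18 (0.17) and UTP15 (0.15). POLR1B, the second largest subunit, was at 15.9, 15.2 and 15.3 FPKM against 15.0, 15.2 and 12.7 FPKM, a log2 fold change of -0.12 with an adjusted p of 0.605 by limma. The difference between both subunits was not tested.

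The 8 snoRNP proteins had the lowest median of the 5 roles, -0.22, with 7 of 8 below 0. They also had the highest median level of the roles, 70.7 FPKM against 13.1 to 35.4 FPKM. The part of level in this ranking was not tested. None of the 8 passed the test as reported. With the term for replicate 2, 4 of 8 passed (background 13.1%), and 2 of 8 from replicates 1 and 3 alone (background 6.67%). NOP56, a core protein of the box C/D snoRNP, was at 106, 91.6 and 104 FPKM in shControl libraries against 83.4, 70.0 and 80.3 FPKM in shEphexin1 libraries. All shEphexin1 libraries were below all shControl libraries. Its log2 fold change was -0.37 ± 0.113 (SE), with an adjusted p of 0.0995 by limma, 0.00168 with the term and 0.0194 from replicates 1 and 3. FBL, the 2′-O-methyltransferase fibrillarin of the same complex, was at 203, 151 and 206 FPKM and at 154, 103 and 171 FPKM. In both groups replicate 2 was the lowest library, and the groups overlapped through it, since the shControl value of replicate 2 lay below 2 of the shEphexin1 values. The adjusted p of FBL was 0.311 by limma, 0.00404 with the term and 0.0345 from replicates 1 and 3 (log2 fold change -0.40). NOP58, the partner of NOP56, had overlapping groups, at 50.6, 58.2 and 46.8 FPKM against 47.2, 63.4 and 46.3 FPKM, a log2 fold change of 0.00. The difference between NOP58 and NOP56 was not tested.

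In the H/ACA snoRNP, NHP2 was at 165, 114 and 163 FPKM in shControl libraries against 122, 89.5 and 126 FPKM in shEphexin1 libraries. Replicate 2 was again the lowest in both groups, and the adjusted p was 0.285 by limma, 0.00143 with the term and 0.0134 from replicates 1 and 3 (log2 fold change -0.39). NOP10, the smallest protein of the complex, was at 266, 231 and 294 FPKM and at 231, 192 and 236 FPKM. Its adjusted p was 0.289 by limma, 0.0121 with the term and 0.0704 from replicates 1 and 3. Its log2 fold change was -0.26, and it was -0.05 after quantile normalization. DKC1 was at 32.2, 33.8 and 34.3 FPKM and at 31.9, 28.4 and 29.8 FPKM. The groups did not overlap but nearly touched, and the log2 fold change was -0.15 ± 0.0992 (SE), with an adjusted p of 0.409 by limma.

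Several of the 58 genes carry snoRNA genes in their introns. The table listed 19 snoRNA or scaRNA genes inside 9 of them, and 18 of these were at 0 in all 6 libraries. SNORA56, inside DKC1, had 3.09 FPKM in the third shControl library and was at 0 in the others. None passed the filter for the test, so the table gives no measure of the snoRNAs that these host genes carry.

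The 5 other nucleolar proteins were all below 0 in log2 fold change, with a median of -0.11. NPM1 (chr5:170814120-170838814, GRCh37) was at 1328, 1375 and 1301 FPKM in shControl libraries against 989, 1122 and 956 FPKM in shEphexin1 libraries. The means were 1335 ± 37.3 and 1022 ± 87.5 FPKM (SD, n = 3), and no library of one group reached the range of the other. The log2 fold change was -0.39 ± 0.103 (SE), with an adjusted p of 0.0674 by limma, 0.00361 with the term for replicate 2 and 0.0173 from replicates 1 and 3. After quantile normalization it was -0.03, with an adjusted p of 0.929 by limma, so this value depended on the scaling of the libraries. NPM1 has processed pseudogenes with near-identical sequence, and how the authors assigned shared reads is not given in the sources used here.

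NCL, nucleolin, an RNA-binding protein of the nucleolus, was at 134, 122 and 141 FPKM and at 132, 114 and 125 FPKM. The groups overlapped, and the log2 fold change was -0.10 with an adjusted p of 0.648 by limma, turning to 0.05 after quantile normalization. LYAR, a nucleolar zinc finger protein, was at 37.1, 37.5 and 39.7 FPKM against 30.6, 33.3 and 29.9 FPKM. All shEphexin1 libraries were lower, at a log2 difference of -0.29 (adjusted p = 0.137 by limma, 0.0142 with the term, 0.0338 from replicates 1 and 3). GNL3 and SURF6 had log2 fold changes of -0.11 and -0.04.

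DDX47, a DEAD-box RNA helicase that acts in early processing of the ribosomal RNA precursor, was the one gene of the 58 that fell in the test as reported. It lies on 12p (chr12:12966250-12982915, plus strand, GRCh37). Its level was 56.7, 58.1 and 57.0 FPKM in shControl libraries against 35.8, 39.3 and 32.3 FPKM in shEphexin1. The control libraries were almost equal, and every shEphexin1 library was well below them. By the log2 fold change, the level was 62.4% of control. The log2 fold change was -0.68 ± 0.107 (SE), with an adjusted p of 0.0152 by limma, 0.000496 with the term for replicate 2 and 0.00495 from replicates 1 and 3 alone. Over the alternatives the adjusted p ran from 0.000224 to 0.0962. It was 0.0343 after quantile normalization, and leaving out 1 library took it above 0.025 for each library except the second of shEphexin1, up to 0.0962 without the first shControl library. A two-sided exact permutation test of the 3 against 3 values gave p = 0.1, the smallest this design allows.

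Most other genes of 12p also had estimates below 0. The median log2 fold change of the 167 other genes on 12p with a mean of at least 1 FPKM was -0.43, with 141 of them below 0, against -0.03 over all genes at that level. DDX47 lay 0.25 log2 units below this arm median, and 31 of the 167 genes were lower than it. NOP2, an RNA methyltransferase of the large subunit pathway and the other gene of the 58 on 12p, lay 0.23 above the arm median. It was at 34.4, 26.4 and 33.4 FPKM in shControl libraries against 27.2, 24.3 and 30.4 FPKM in shEphexin1 libraries, with overlapping groups and an adjusted p of 0.471 by limma, and of 0.0238 with the GC and length correction. Medians away from 0 were also found on 7q (0.30) and chromosome 18 (-0.45), which hold none of the 58 genes. The part of the arm in the value of DDX47 was not tested. APOLD1, which overlaps DDX47 on the same strand, had higher values in shEphexin1, at 4.89, 4.74 and 3.94 FPKM against 6.59, 6.14 and 6.10 FPKM. It did not pass the test, with an adjusted p of 0.0922 by limma, but did with the term for replicate 2 (0.0199). From replicates 1 and 3 alone it did not (0.0605).

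The 20 small subunit factors had a median log2 fold change of -0.08, with 16 below 0, and in 17 of them the groups overlapped. In the other 3 all shEphexin1 libraries were lower (15%, background 15.4%), a share close to the background. RCL1, the RNA cyclase-like processing factor, was at 7.58, 6.58 and 8.44 FPKM in shControl libraries against 4.46, 4.76 and 5.76 FPKM in shEphexin1 libraries. All shEphexin1 libraries were lower, its log2 fold change being -0.59 ± 0.158 (SE), at an adjusted p of 0.0713 by limma, 0.0106 with the term and 0.0366 from replicates 1 and 3. NOP14, a scaffold of the small subunit processome, was at 28.5, 27.97 and 31.0 FPKM and at 24.2, 19.8 and 25.3 FPKM. These did not overlap, and the adjusted p was 0.161 by limma, 0.0127 with the term and 0.0863 from replicates 1 and 3 (log2 fold change -0.34).

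Other parts of the small subunit processome had estimates near 0. HEATR1, a large scaffold protein that also acts in transcription of ribosomal DNA, was at 17.4, 19.97 and 15.7 FPKM in shControl libraries against 16.8, 20.04 and 15.7 FPKM in shEphexin1 libraries. Each library had nearly the value of the library with the same number in the other group, with a log2 fold change of -0.01, which turned to 0.03 after quantile normalization. UTP15, another factor of the same assembly, was at 9.11, 11.1 and 9.08 FPKM and at 10.5, 12.4 and 8.63 FPKM (log2 fold change 0.10). NOL6 was at 8.97, 6.72 and 9.59 FPKM against 9.49, 6.79 and 10.4 FPKM (log2 fold change 0.07). The groups overlapped for UTP15, NOL6 and HEATR1.

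Among the 17 large subunit factors, 13 were below 0, with a median log2 fold change of -0.08, and none passed the test as reported. EBNA1BP2, a nucleolar assembly factor, was at 108, 97.5 and 107 FPKM in shControl libraries against 76.7, 71.4 and 81.6 FPKM in shEphexin1 libraries. The groups stood well apart, and the log2 fold change was -0.44 ± 0.1003 (SE), with an adjusted p of 0.0429 by limma, 0.000983 with the term and 0.0127 from replicates 1 and 3. DDX21, an RNA helicase of the nucleolus, was at 82.8, 90.9 and 80.3 FPKM and at 59.0, 74.5 and 53.7 FPKM. Replicate 2 was the highest in both groups, and the adjusted p was 0.103 by limma, 0.00325 with the term and 0.00984 from replicates 1 and 3 (log2 fold change -0.45). FTSJ3, an RNA methyltransferase, was at 31.8, 25.5 and 34.7 FPKM and at 25.4, 20.6 and 25.2 FPKM. Its groups were just separate, its log2 fold change being -0.36. The adjusted p was 0.207 by limma, 0.00498 with the term and 0.0268 from replicates 1 and 3.

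BOP1 and PES1 encode 2 proteins of the PeBoW complex, which is needed for the large subunit. BOP1 was at 37.7, 21.8 and 43.3 FPKM in shControl libraries against 28.1, 16.6 and 35.2 FPKM in shEphexin1 libraries. The spread within each group was wide, with replicate 2 lowest. The adjusted p was 0.570 by limma, 0.0248 with the term and 0.104 from replicates 1 and 3 (log2 fold change -0.37). PES1 was at 30.5, 20.2 and 32.8 FPKM and at 29.9, 18.9 and 28.7 FPKM, its log2 fold change being -0.10, at an adjusted p of 0.848 by limma. WDR12, the third protein of the complex, had a log2 fold change of -0.08. The difference between BOP1 and its partners was not tested.

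DDX18, an RNA helicase, was at 17.7, 19.97 and 17.5 FPKM in shControl libraries against 18.4, 23.7 and 18.3 FPKM in shEphexin1 libraries, with overlapping groups and a log2 fold change of 0.12 (adjusted p = 0.666 by limma). PPAN, an assembly factor of the large subunit, was at 15.4, 11.3 and 18.9 FPKM and at 20.5, 10.0 and 19.8 FPKM. The values of both groups were spread over the same range, at a log2 fold change of 0.10 with an adjusted p of 0.886 by limma. PPAN overlaps P2RY11 and the readthrough gene PPAN-P2RY11 on the same strand, so its reads may be split between them.

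Replicate 2 differed from replicates 1 and 3 in the same way in both groups. Its log2 value minus the mean of the other 2 ran from -0.88 (BOP1) to 0.32 (WDR75) in shControl and from -0.997 (PPAN) to 0.47 (NOC3L) in shEphexin1. Across the 58 genes this deviation had a Pearson r with transcript GC content of -0.91 in shControl and -0.95 in shEphexin1. The GC content of the 58 genes ran from 37.7% to 65.6%, with a median of 48.6%. The log2 fold change between the groups had an r of 0.05 with GC content. These correlations are across genes of the same 6 libraries and are given as descriptions. BOP1 had the highest GC content of the 58 genes, and its deviation was -0.88 in shControl and -0.91 in shEphexin1.

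**Figure D2:**
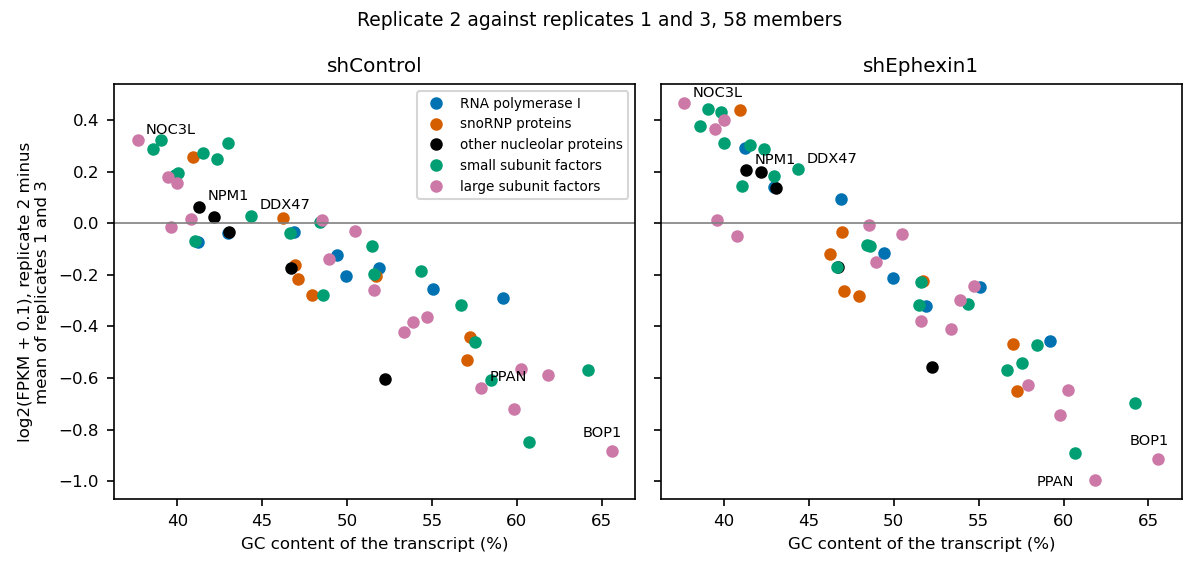
Log2(FPKM + 0.1) of replicate 2 minus the mean of replicates 1 and 3 (y axis, log2 units) against the GC content of the transcript (x axis, percent) for the 58 genes, shControl at left and shEphexin1 at right, coloured by role. In both panels the points fall from above 0 at low GC content to -0.88 and -0.91 at the highest (BOP1), with r of -0.91 and -0.95.

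The other genes of the pathway were taken from lists of 120 ribosome biogenesis genes outside the 58, all of which were tested. Of these, 4 fell (3.33%, background 2.15%) and none rose, and 83 were below 0, with a median log2 fold change of -0.08. With the term for replicate 2, 28 were lower (23.3%, background 13.1%) and 3 higher (2.50%, background 8.59%). From replicates 1 and 3 alone these were 12 lower (10.0%, background 6.67%) and 1 higher (0.833%, background 3.95%). The median was -0.18 over 9 other snoRNP and snoRNA assembly genes, -0.10 over 49 large subunit genes, -0.07 over 15 exosome genes, -0.05 over 39 small subunit genes and -0.04 over 8 RNA polymerase I genes. The snoRNP list thus had the lowest median here as among the 58 genes, a description with no test. It also had the highest median level of these lists, 27.6 FPKM against 12.1 to 27.1 FPKM. The part of level in this ranking was not tested.

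The 4 that fell were named after their values were seen. UTP18, of the small subunit processome, was at 46.1, 43.1 and 43.3 FPKM in shControl libraries against 23.5, 23.01 and 20.8 FPKM in shEphexin1 libraries. Its level was about even within each group, its log2 fold change being -0.97 ± 0.102 (SE), at an adjusted p of 0.00375 by limma. PA2G4, a growth-related RNA-binding protein, was at 155, 143 and 157 FPKM against 106, 104 and 108 FPKM (log2 fold change -0.51, adjusted p = 0.0208 by limma). EXOSC1, a subunit of the RNA exosome, had a log2 fold change of -0.65 (adjusted p = 0.0150 by limma). EMG1, a ribosomal RNA methyltransferase that also lies on 12p, had one of -0.67 (adjusted p = 0.0178 by limma). The genes that were higher with the term for replicate 2 were SBDS, URB1 and UTP6, also named after their values were seen. SBDS had a log2 fold change of 0.48 (adjusted p = 0.0562 by limma, 0.00121 with the term). URB1 had one of 0.38 (0.161 and 0.00977) and UTP6 one of 0.25 (0.176 and 0.0214). The count of 4 that fell went to 2 after quantile normalization and to 0 without replicate 1 of either group. It went to 1 without replicate 3 of either group or replicate 2 of shControl, and to 3 without replicate 2 of shEphexin1.

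MYC mRNA was at 41.0, 34.2 and 44.1 FPKM in shControl libraries against 36.7, 31.4 and 39.4 FPKM in shEphexin1 libraries. The groups overlapped, and the log2 fold change was -0.15 ± 0.139 (SE), with an adjusted p of 0.582 by limma. Of 12 genes listed for the MYC network, 10 were tested, with a median log2 fold change of 0.01, 5 below 0 and none past the test as reported. With the term for replicate 2, 1 of the 10 was lower (10%, background 13.1%) and 1 higher (10%, background 8.59%). The lower one was MXI1 (log2 fold change -0.44, adjusted p = 0.0182 by limma) and the higher one MLXIP (0.64, adjusted p = 0.00247 by limma). From replicates 1 and 3 alone MLXIP passed (adjusted p = 0.00987 by limma, background 3.95% higher) and MXI1 did not (adjusted p = 0.0826 by limma). With the GC and length correction, 3 of the 10 were lower (30%, background 14.2%) and 1 higher (10%, background 8.57%). MXI1 and MLXIP were named after their values were seen. The E-box CACGTG stood in at least 1 promoter window of 7 of the 13 genes with an entry that were lower with the term for replicate 2 (53.8%), and of 15 of the 36 other genes with an entry (41.7%), a difference that was not tested.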

How the data were processed

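RNA was extracted with TRIzol from NCI-H1299 cells and libraries were made with a stranded total RNA kit. Per the submitters' notes, the authors aligned reads with TopHat2 2.0.13 to GRCh37 (hg19). The deposited FPKM values were made by the authors with Cufflinks 2.2.1, for which their methods state a geometric normalization of the libraries. Gene annotation and strand setting of the counting are not given in the sources used here. From these FPKM, log2(FPKM + 0.1) was fitted with limma 3.58.1 (R 4.3.3; eBayes with trend) over the 16020 genes that reached 0.1 FPKM in 3 or more libraries, with Benjamini-Hochberg adjustment. A gene was called at an adjusted p up to 0.025, the stricter call also asking for a fold of 2 or more. Fold changes are on the log2(FPKM + 0.1) scale. Coordinates and GC content came from GENCODE 44 on GRCh37. The script was tested on simulated data. There, 30 of 98 genes with a true log2 change of 1 passed the adjusted p threshold, as did 82 of 97 at 2. Smaller changes were not simulated.

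The 58 genes and all lists were chosen with earlier results of these data known. Named genes were those past the threshold, the 5 with the largest increase and decrease, the 5 most abundant, 14 fixed regulators and assembly factors, and MYC; NOP56, POLR1D, NOP14, LYAR, FTSJ3, NOP58, WDR12, GNL3, SURF6, GAR1, those at the ends of the GC plot and those with a printed promoter were named after their values were seen. The alternatives were other pseudocounts, filters, scalings and variance settings, a term for replicate 2 or for replicate number, a GC and length correction, and leaving out libraries. Quantile normalization with the term for replicate 2 was added after seeing the data. One marker gene of the line is not reported here.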

Additional observations from a re-analysis of the deposited data

How the results depend on the processing

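As reported, 1 of the 58 genes and 4 of the 120 other genes were lower, with a median over the 58 of -0.10. These values held with pseudocounts of 1 and 0.01 FPKM, no filter, a filter of 1 FPKM and robust eBayes. Median centring gave the same counts with a median of -0.0887. Lower genes among the 58 and the 120 numbered 0 and 2 with quantile normalization (median -0.0438; 1.62% of all genes), 0 and 1 with eBayes without trend (1.67%), 14 and 28 with the term for replicate 2 (13.1%), 6 and 12 from replicates 1 and 3 (6.67%), 14 and 31 with the GC and length correction (median -0.12; 14.2%), 7 and 23 with quantile normalization and the term (median -0.0438; 10.3%), and 2 and 7 at an adjusted p of at most 0.05 (4.32%). Higher genes among the 120 numbered 3, 1, 1 and 5 with the term, from replicates 1 and 3, with the correction, and with quantile normalization and the term, against 8.59%, 3.95%, 8.57% and 9.55% of all genes. With the replicate number as a block, 17 of the 58 were lower (29.3%, background 15.7%), as were 36 of the 120, and 3 of the 120 were higher (background 10.1%). Block and correction together gave 20, 37 and 6 (median -0.12; 18.2% of all genes lower, 10.5% higher). No choice gave a higher gene or a fold of 2 among the 58. Why counts moved was not tested.

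The replicate numbers were not shown to pair the libraries. The deviations of same-numbered libraries from their group means correlated at 0.0914, 0.430 and 0.328 for replicates 1, 2 and 3. Libraries 2 and 3 of shEphexin1 correlated best with their own number, a hint from the data and not the design. The first shEphexin1 library correlated about as well with the third shControl library (0.0887) as with the first.

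Leaving out 1 library gave 0 to 1 lower genes of the 58, 0 to 3 of the 120 and a median of -0.176 to -0.0945. Over all genes, it gave 37 to 363 lower and 23 to 222 higher. HEATR1 and NCL turned to 0.0311 and 0.0464 with quantile normalization, with or without the term, and NOL6 and PPAN to -0.0732 and -0.00292 with the correction, with or without the block. Leaving out 1 library, the log2 fold change ran from -0.115 to 0.0770 for HEATR1, -0.0842 to 0.249 for NOL6, -0.0930 to 0.435 for PPAN, -0.317 to 0.106 for PES1, -0.202 to 0.0781 for TCOF1, -0.00247 to 0.184 for DDX18 and -0.0301 to 0.229 for UTP15, so these signs rest on single libraries. With no counts, what depth limits could not be assessed.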
